A study of Tachycineta bicolor and Sialia sialis and Hirundo rustica with 121 samples.

Results

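The genes described here encode voltage-gated calcium channels, sodium channels, pacemaker and leak channels, TRP cation channels and the channels that release calcium from internal stores. The rule that takes them uses the symbol of a gene and no value: the symbols that begin with CACN, or with SCN followed by a digit, together with NALCN, the HCN genes, the TRPA, TRPC, TRPM and TRPV genes, the ryanodine receptor genes and the ITPR genes. The rule took 44 of the 10672 genes of the count table. They comprised 8 pore-forming calcium channel subunits, 11 auxiliary calcium channel subunits and their TARP relatives, the sodium channel pore SCN8A, 4 sodium channel beta subunits, NALCN, 4 HCN channels, 5 store release channels and 10 TRP channels. Of 40 main neuronal subunits listed for description, 34 had a row, and CACNB4, CACNG2, SCN1A, SCN2A, SCN3A and TRPM3 were not analysed here.

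RNA was sequenced from the ventromedial telencephalon, a part of the ventral forebrain, of 121 adult songbirds (61 females and 60 males) of 10 species in 5 families. Birds were taken in the Midwestern United States before laying, while they held territories and built nests. Each family was represented by an obligate cavity nester, which breeds only in cavities, and by a less obligate relative. The pairs were Tree Swallow and the open cup nesting Barn Swallow in Hirundinidae, Prothonotary Warbler and the open cup nesting Yellow Warbler in Parulidae, and Eastern Bluebird and the open cup nesting American Robin in Turdidae. In Passeridae the Eurasian Tree Sparrow was set against the facultative House Sparrow, and in Troglodytidae the House Wren against the facultative Carolina Wren. There were 13 Tree Swallows (7 females and 6 males) and 12 birds, 6 of each sex, of every other species. The study asked whether aggression that evolved repeatedly with obligate cavity nesting goes with shared changes in brain expression. A family holds a single pair of species here, so nesting strategy and species cannot be told apart within a family, and the labels give no age beyond adult and no behaviour score.

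Voltage-gated calcium channels open when a neuron is depolarized, and the calcium that enters triggers transmitter release, shapes firing and reaches the nucleus as a signal. Except in the T-type channels, the pore-forming subunit travels and gates together with an alpha2delta and a beta subunit. Voltage-gated sodium channels start the action potential, HCN channels carry a cation current that opens on hyperpolarization and sets rhythm and dendritic integration, and NALCN carries a sodium leak that holds the resting potential. Inositol trisphosphate and ryanodine receptors release calcium from the endoplasmic reticulum, and TRP channels respond to lipids, receptors, temperature or metal ions.

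The libraries held between 4526413 and 7549296 counts, of which the 44 genes took 0.340% to 0.704%. Levels are given as CPM, counts over the library total scaled by edgeR's TMM factors, as mean ± SD over the birds of a species, and differences as log2 of the obligate over the less obligate nester with the SE of the fit. CPM are not divided by gene length, so levels are compared between birds and never between genes. A difference was counted when its Benjamini-Hochberg adjusted p over all genes tested was under 0.05 in edgeR's quasi-likelihood test. All 121 birds correlated best with other birds of their own species. In 6 libraries something stood apart: Barn Swallow females 3 and 4, House Sparrow female 3 and Eastern Bluebird male 12 had a median correlation under 0.9 with birds of the same species and sex, and Carolina Wren female 1 and male 3 had a level of the W-linked gene CHD1W that went against their labelled sex. The summed level of 4 telencephalon markers had species means of 94.3 to 195.6 CPM, and none of 12 muscle markers had a row. Mitochondrially encoded genes took at least 14.8% of the counts in Prothonotary and 7.68% to 13.0% in Yellow Warblers, and 11.0% to 14.2% in House and 14.6% to 18.7% in Carolina Wrens, in both pairs without overlap. They took 16.0% to 28.1% in Eurasian Tree and 6.41% to 19.8% in House Sparrows, where House Sparrow female 3 was the bird that overlapped, and the other 2 pairs overlapped within 4.56% to 10.3%. These are bulk samples, so fewer cells of a type and less RNA per cell cannot be told apart. The name of the deposited table refers to zebra finch proteins, and how well the reads of each species fit that set was not measured, so part of any difference between species may lie in mapping and cannot be told apart here from a difference in RNA.

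All 44 genes differed among the 10 species (99.6% of all genes did), and for 41 the difference between the paired species depended on family (89.5% of all genes). CACNG3, ITPR3 and TRPC6 had the largest shares of their variance left after species and sex, at 79.6%, 75.5% and 61.6%. At the other end stood CACNG7 and TRPV1, with 8.13% and 9.92% left. Such a share also depends on how far the species differ, so it does not measure spread within species alone. The SD within a species, as a percentage of the mean, had a median over species of 31.6% for CACNG3 and 43.9% for CACNG7. The median member had 37.9% of its variance between families, 22.4% between the species of a family, 0.0866% between the sexes and 31.0% left over, against 40.5%, 21.3%, 0.126% and 28.8% for the median gene. The ratio of the highest to the lowest species mean had a median of 2.96 over the members and 3.11 over all genes, and it ran from 1.70 for CACNG3 to 80.3 for CACNG7. The medians over the members lie close to those of the whole table.

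**Figure D1:**
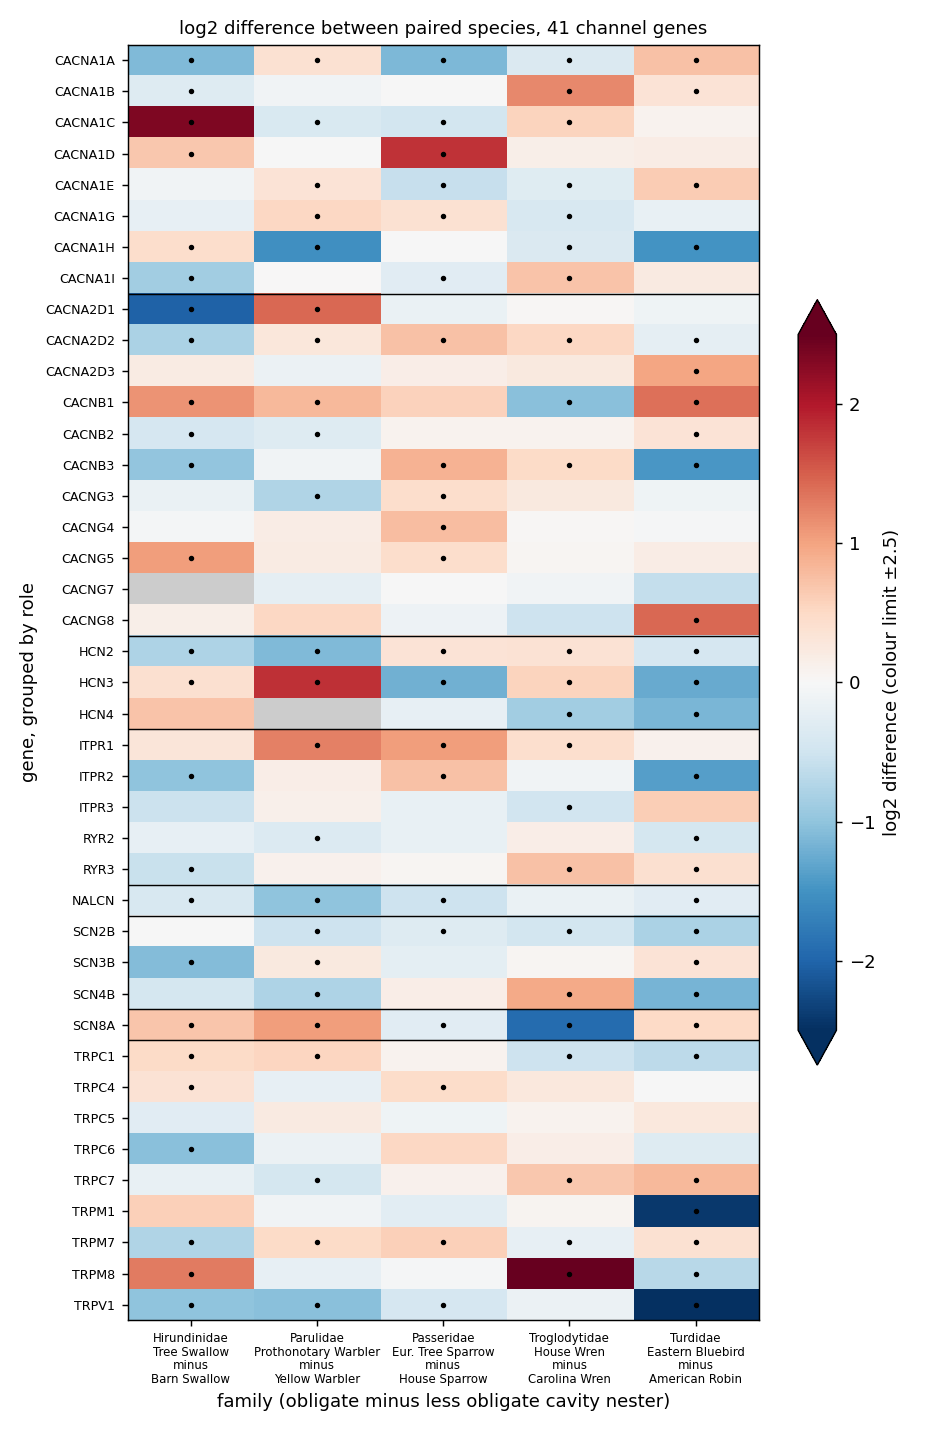
Heat map of the log2 difference between the obligate and the less obligate nester in 5 families (columns) for 41 channel genes (rows, grouped by role); red is higher in the obligate nester, blue lower, grey not tested, a dot marks an adjusted p under 0.05, and colours stop at ±2.5. Most rows change colour from family to family, and the deepest cells are TRPM8 in Troglodytidae (4.59), TRPV1 (-3.98) and TRPM1 (-2.41) in Turdidae and CACNA1C in Hirundinidae (2.32).

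In Hirundinidae 27 of 43 members tested differed between Tree and Barn Swallows (54.4% of all genes did), 11 higher (25.8%) and 16 lower (28.5%) in the Tree Swallow, and 10 by at least 2-fold (14.7%). In Parulidae 24 of 43 differed (55.4%), 12 higher (28.1%) and 12 lower (27.3%), and 8 by at least 2-fold (12.0%). In Passeridae the count was 21 of 44 (49.0%), with 12 higher (24.2%) and 9 lower (24.8%), and 4 by at least 2-fold (12.4%). In Troglodytidae it was 24 of 44 (56.9%), with 13 higher (30.7%) and 11 lower (26.2%), and 5 by at least 2-fold (11.7%). In Turdidae 28 of 44 differed (56.3%), 13 higher (28.5%) and 15 lower (27.7%), and 10 by at least 2-fold (17.9%). These shares lie near those of all genes. The median absolute difference was 0.55 over the members and 0.38 over all genes in Hirundinidae, and 0.29 to 0.47 over the members against 0.31 to 0.43 over all genes in the other 4 families. CACNG7 in Hirundinidae and HCN4 in Parulidae did not pass the filter on low counts.

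Markers of cell types also differed within pairs. The counts below stand beside 24.2% to 30.7% of all genes higher and 24.8% to 28.5% lower in the obligate nester of a family. The lists are short, and not every list is described. In Troglodytidae 4 of 8 excitatory neuron markers were lower and 2 higher in the House Wren, and their summed level ran at 953 to 1562 CPM in House and 1820 to 3357 CPM in Carolina Wrens, without overlap. CAMK2A, a marker of this list, was lower in the House Wren (log2 -2.96), while CAMK2B, which is not in it, was higher (1.84). Abundant genes weigh most in such a sum, and the share of CAMK2A was not separated. Of 6 oligodendrocyte markers, 3 were lower in the House Wren (sums of 420 to 879 against 661 to 1574 CPM). In Hirundinidae 5 of 8 pan-neuronal markers were lower and 2 higher in the Tree Swallow, but the sums overlapped (4192 to 6128 and 4627 to 6137 CPM). In Turdidae 4 of 5 microglia markers (sums of 50.1 to 194 against 102 to 251 CPM) and 5 of 5 blood markers (259 to 1544 against 349.7 to 8881 CPM) were lower in the Eastern Bluebird, as were 4 of 10 endothelial and mural markers. There 1 microglia marker was higher, and of 6 astrocyte markers 2 were higher and 3 lower. In Hirundinidae 4 of 5 blood markers (sums of 333 to 1877 against 466 to 1742 CPM), 3 of 6 hypothalamus and midbrain markers (18.8 to 84.7 against 32.1 to 108 CPM) and 2 of 4 cerebellum markers (289.8 to 1086 against 471 to 2075 CPM) were lower in the Tree Swallow. In Troglodytidae 2 of 4 cerebellum markers were lower in the House Wren (221 to 361 against 224 to 734 CPM). In Passeridae 4 of 10 endothelial and mural and 3 of 6 astrocyte markers were higher in the Eurasian Tree Sparrow, and 3 of 6 hypothalamus and midbrain markers lower. None of the lists named here had a marker at a mean of 0 in a species. Their part in the counts of members was not tested, apart from the fit with neuronal and oligodendrocyte scores given at the end.

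The L-type pores gave the largest differences among the calcium channel pores. CACNA1C, an L-type pore of neurons and heart, had lowest, median and highest values of 66.6, 77.6 and 98.5 CPM in Tree Swallows and 11.5, 14.5 and 22.9 CPM in Barn Swallows. The groups did not overlap, and every Barn Swallow lay below every bird of the other 9 species. Means were 78.6 ± 9.54 and 15.6 ± 3.37 CPM, a log2 difference of 2.32 ± 0.10 (adjusted p = 3.55e-17). In Troglodytidae CACNA1C was higher in the House Wren (log2 0.56 ± 0.08), and it was lower in the obligate nester of Parulidae (-0.39 ± 0.11) and Passeridae (-0.46 ± 0.17). The other neuronal L-type pore, CACNA1D, which opens at lower voltages, stood low in the House Sparrow. Its lowest, median and highest values were 22.9, 48.0 and 66.5 CPM there and 112, 158 and 236 CPM in the Eurasian Tree Sparrow (log2 1.81 ± 0.15, adjusted p = 9.64e-11). No House Sparrow reached the lowest Eurasian Tree Sparrow, and species means elsewhere ran from 128 CPM in Barn Swallows to 204 CPM in Tree Swallows. CACNA1D was also higher in Tree than in Barn Swallows (0.67 ± 0.09).

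The pores that drive transmitter release differed in opposite directions in different families. CACNA1A, the P/Q-type pore of most fast synapses, ran at 54.8, 73.8 and 121 CPM (lowest, median, highest) in Tree Swallows against 103, 153 and 300.2 CPM in Barn Swallows, and at 93.2, 117 and 163 CPM in Eurasian Tree Sparrows against 180.0, 259 and 373 CPM in House Sparrows. The sparrows did not overlap and the swallows did. It was lower in the obligate nester by log2 -1.11 ± 0.14 in Hirundinidae, -1.12 ± 0.10 in Passeridae and -0.37 ± 0.10 in Troglodytidae, and higher in Turdidae (0.74 ± 0.13) and Parulidae (0.39 ± 0.10). CACNA1B, the N-type pore, ran at 126, 145 and 182 CPM in House Wrens and 55.9, 64.7 and 76.7 CPM in Carolina Wrens, with no overlap (log2 1.21 ± 0.06, adjusted p = 3.23e-15). It was lower in Tree than in Barn Swallows (-0.33 ± 0.11) and higher in Eastern Bluebirds than in American Robins (0.35 ± 0.12). CACNA1E, the R-type pore, was higher in the obligate nester of Parulidae (0.34) and Turdidae (0.64) and lower in that of Passeridae (-0.57) and Troglodytidae (-0.30).

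The T-type pores carry low-threshold calcium currents that support burst firing. CACNA1H ran at 8.75, 12.8 and 16.4 CPM (lowest, median, highest) in Prothonotary Warblers and 27.2, 38.3 and 45.6 CPM in Yellow Warblers (log2 -1.53 ± 0.10, adjusted p = 1.65e-13). In Eastern Bluebirds it ran at 2.4, 7.99 and 15.6 CPM and in American Robins at 16.6, 23.9 and 30.0 CPM (log2 -1.5 ± 0.19, adjusted p = 9.39e-08). In both families all birds of the obligate species lay below all birds of the other, while in Hirundinidae the Tree Swallow was higher (0.43 ± 0.14). CACNA1I was lower in Tree than in Barn Swallows (-0.87 ± 0.09) and in Eurasian Tree than in House Sparrows (-0.29 ± 0.11), and higher in House than in Carolina Wrens (0.71 ± 0.06). CACNA1G differed by less, higher in the obligate nester of Parulidae (0.53) and Passeridae (0.38) and lower in that of Troglodytidae (-0.40).

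Over the 8 pores, 3 were higher and 3 lower in Hirundinidae, 3 and 2 in Parulidae, 2 and 4 in Passeridae, 3 and 4 in Troglodytidae, and 3 and 1 in Turdidae, where 24.2% to 30.7% of all genes were higher and 24.8% to 28.5% lower in a family.

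The alpha2delta subunits bring the pores to the membrane, and CACNA2D1 is also a receptor for gabapentin-type drugs. CACNA2D1 ran at 37.4, 64.6 and 106 CPM (lowest, median, highest) in Tree Swallows and 198, 259 and 316 CPM in Barn Swallows, with no overlap (log2 -2.03 ± 0.14, adjusted p = 5.43e-13). In Parulidae the order was the opposite, with 115, 204 and 310.3 CPM in Prothonotary and 48.1, 80.9 and 105 CPM in Yellow Warblers (log2 1.43 ± 0.15, adjusted p = 4.2e-09). In the other 3 families its differences of -0.17, 0.02 and -0.10 did not pass the threshold. CACNA1C and CACNA2D1, a pore and an auxiliary subunit that can share a channel, thus stood apart in opposite directions in the same pair of swallows. CACNA2D2 differed in all 5 families, lower in Tree Swallows (-0.78 ± 0.06) and Eastern Bluebirds (-0.22 ± 0.09) and higher in the obligate nester of Passeridae (0.74 ± 0.09), Troglodytidae (0.52 ± 0.06) and Parulidae (0.27 ± 0.06). The value in Turdidae did not pass with library size alone, with no filter, without the 6 libraries that stand apart or with marker scores as covariates (adjusted p of 0.0611 to 0.111 in edgeR). CACNA2D3 differed in Turdidae only, higher in the Eastern Bluebird (0.99 ± 0.16), and its range over the other 4 families was -0.15 to 0.24.

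Beta subunits set how many channels reach the surface and how they gate. CACNB3 ran at 26.3, 36.9 and 49.5 CPM (lowest, median, highest) in Eastern Bluebirds against 65.2, 111 and 142 CPM in American Robins, with no overlap (log2 -1.45 ± 0.13, adjusted p = 3.56e-10). It was lower in Tree Swallows too (-0.99 ± 0.16), and higher in House Wrens (0.49 ± 0.15) and Eurasian Tree Sparrows (0.87 ± 0.15). CACNB1 was higher in the obligate nester of Hirundinidae (1.12 ± 0.30), Parulidae (0.81 ± 0.18) and Turdidae (1.38 ± 0.38) and lower in the House Wren (-1.04 ± 0.18). The higher values passed in females alone (1.44, 1.19 and 1.43) but not in males alone (adjusted p of 0.0887, 0.228 and 0.171 in edgeR). With the replicate block CACNB1 in Turdidae did not pass either (0.80, adjusted p = 0.527). Birds varied widely, as in House Sparrows, whose mean was 5.79 ± 5.87 CPM. CACNB2 was lower in Tree Swallows (-0.43 ± 0.07) and Prothonotary Warblers (-0.32 ± 0.12) and higher in Eastern Bluebirds (0.34 ± 0.12).

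Most CACNG products are TARPs, which traffic AMPA receptors rather than calcium channels. CACNG7 was at 0.909 ± 0.467 CPM in Tree and 0.815 ± 0.450 CPM in Barn Swallows, from 1 to 12 counts a library, and at species means of 7.31 to 65.5 CPM in the other 8 species. Both swallows were low, and CACNG7 did not differ between the species of any family in which it was tested (log2 -0.59 to -0.01). CACNG8 was higher in Eastern Bluebirds, with a mean of 7.27 ± 5.17 CPM against 2.65 ± 1.04 CPM in the American Robin (log2 1.44 ± 0.41) with overlapping birds. CACNG3 was lower in Prothonotary Warblers (-0.76 ± 0.12) and higher in Eurasian Tree Sparrows (0.44 ± 0.16). CACNG4 was higher in Eurasian Tree Sparrows (0.77 ± 0.10) and CACNG5 in Tree Swallows (1.04 ± 0.18) and Eurasian Tree Sparrows (0.45 ± 0.16). Of the 11 auxiliary genes, 5 were higher and none lower in the Eurasian Tree Sparrow, against 24.2% and 24.8% of all genes. With library size alone CACNG3 (0.26, adjusted p = 0.157) and CACNG5 (0.27, 0.141) did not pass there in edgeR.

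SCN8A, the sodium channel pore found at axon initial segments and nodes, differed in all 5 families. Its lowest, median and highest values were 129.6, 170.3 and 242 CPM in House Wrens and 582, 666 and 744 CPM in Carolina Wrens. The lowest Carolina Wren lay above every bird of the other 9 species, and the wrens did not overlap (log2 -1.93 ± 0.08, adjusted p = 9.07e-17). In Parulidae the values were 204, 258 and 364 CPM in Prothonotary and 92.4, 137 and 179 CPM in Yellow Warblers, again without overlap but in the other direction (log2 1.05 ± 0.11). SCN8A was higher in Tree Swallows (0.69 ± 0.09) and Eastern Bluebirds (0.50 ± 0.08) and lower in Eurasian Tree Sparrows (-0.29 ± 0.11, adjusted p = 0.0362).

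The beta subunits bind sodium channel pores and adhesion proteins. SCN2B was lower in the obligate nester of 4 families, by log2 -0.52 ± 0.07 in Parulidae, -0.33 ± 0.07 in Passeridae, -0.46 ± 0.11 in Troglodytidae and -0.79 ± 0.13 in Turdidae, and its value in Hirundinidae was -0.01 ± 0.12. Birds ran at 38.8 to 61.5 CPM in Prothonotary against 71.3 to 92.7 CPM in Yellow Warblers, with no overlap. In the other 4 pairs the birds overlapped, as with 28.5 to 55.1 CPM in Eastern Bluebirds against 48.2 to 96.3 CPM in American Robins. SCN3B was at 52.7 ± 10.8 CPM in Tree and 112 ± 33.1 CPM in Barn Swallows (log2 -1.09 ± 0.15). SCN4B, which promotes the resurgent current of fast-firing neurons, was lower in Eastern Bluebirds (-1.16 ± 0.32) and Prothonotary Warblers (-0.76 ± 0.17) and higher in House Wrens (0.95 ± 0.20).

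**Figure D2:**
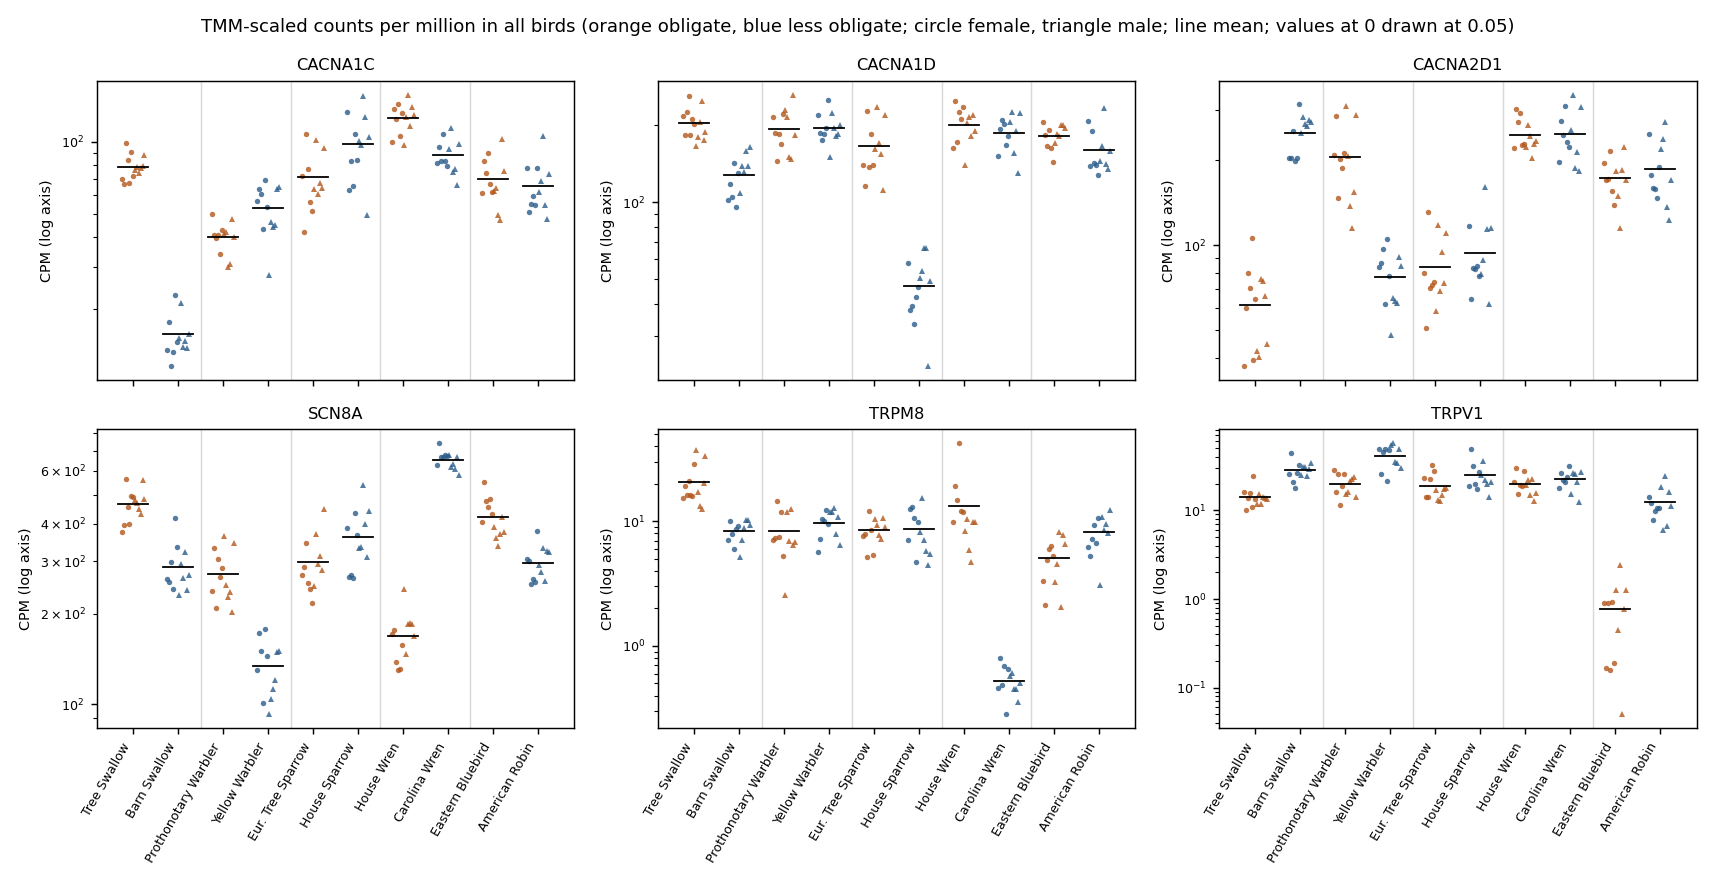
CPM of 6 genes in each of 121 birds on log axes (orange, obligate species; blue, less obligate; circles, females; triangles, males; black line, species mean; a value at 0 is drawn at 0.05; grey lines divide families). Single species stand apart: Barn Swallow for CACNA1C, House Sparrow for CACNA1D, Carolina Wren for SCN8A and TRPM8, Eastern Bluebird for TRPV1.

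NALCN was lower in the obligate nester of 4 families and had the same sign in the remaining family. Its lowest, median and highest values were 127, 179.6 and 279 CPM in Prothonotary and 238, 385 and 452 CPM in Yellow Warblers, the pair with the largest difference (log2 -1.01 ± 0.11, adjusted p = 1.35e-08). The differences were -0.40 ± 0.08 in Hirundinidae, -0.52 ± 0.12 in Passeridae and -0.28 ± 0.12 in Turdidae (adjusted p = 0.0486), and -0.18 ± 0.09 in Troglodytidae (adjusted p = 0.0842), where it did not pass. Birds overlapped in every pair. Species means ran from 82.3 ± 20.8 CPM in Eurasian Tree Sparrows to 371 ± 61.0 CPM in Yellow Warblers. The NALCN channel works in a complex with UNC79, UNC80 and the subunits NALF1 and NALF2, and these shared its sign in some families only. UNC80 was lower in the obligate nester of Parulidae (-0.46), Passeridae (-1.41) and Troglodytidae (-0.73), and higher in Hirundinidae (1.41) and Turdidae (1.26). UNC79 was lower in Hirundinidae (-3.07) and Troglodytidae (-0.62) and higher in Parulidae (0.88) and Turdidae (1.35). NALF2 was 0.58 in Hirundinidae and -0.54 in Parulidae, and NALF1 was called in no family.

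HCN channels differ in how readily cyclic AMP opens them. HCN3 had a wide span of differences, from -1.25 to 1.83. Its lowest, median and highest values were 15.2, 24.4 and 29.0 CPM in Prothonotary and 3.60, 6.64 and 11.7 CPM in Yellow Warblers (log2 1.83 ± 0.16, adjusted p = 7.94e-11), with no overlap. In Passeridae it was lower in the Eurasian Tree Sparrow (-1.20 ± 0.15) and in Turdidae lower in the Eastern Bluebird (-1.25 ± 0.17), while House Wrens (0.55 ± 0.13) and Tree Swallows (0.41 ± 0.15) were higher than their relatives. HCN2 differed in all 5 families too, most in Parulidae, with 10.9, 20.9 and 30.4 CPM in Prothonotary and 37.4, 43.9 and 58.1 CPM in Yellow Warblers (log2 -1.10 ± 0.11). The Yellow Warbler was therefore low in HCN3 and high in HCN2 against its relative. HCN4 was low throughout, with species means of 0.972 to 8.28 CPM, and was lower in House Wrens (-0.87 ± 0.13) and Eastern Bluebirds (-1.14 ± 0.43).

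Among the store release channels, ITPR1, the main inositol trisphosphate receptor of neurons, had a positive difference in every family, although in Turdidae the sign turned in males alone (-0.08, adjusted p = 0.837 in edgeR) and under another alternative given at the end. Its lowest, median and highest values were 354, 680.5 and 821 CPM in Prothonotary and 137, 287 and 385 CPM in Yellow Warblers (log2 1.26 ± 0.12, adjusted p = 1.15e-09). It was higher in House Wrens (0.43 ± 0.11) and Eurasian Tree Sparrows (1.05 ± 0.17), and its values of 0.30 ± 0.15 in Hirundinidae and 0.10 ± 0.16 in Turdidae did not pass. The birds of all 5 pairs overlapped. ITPR2, which prevails in glia and peripheral cells, ran at 34.2, 43.5 and 58.7 CPM in Eastern Bluebirds against 84.4, 116 and 161 CPM in American Robins (log2 -1.39 ± 0.11, adjusted p = 2.34e-11) and was lower in Tree Swallows as well (-1.0 ± 0.09), in both cases without overlap. Markers of microglia (4 of 5 lower, 1 higher, median log2 -0.89) and of blood (5 of 5 lower, median -1.57) were also lower in Eastern Bluebirds. Of 6 astrocyte markers there, 2 were higher and 3 lower (median -0.14). In Tree Swallows 0 of 4 microglia markers differed, 4 of 5 blood markers were lower, and of 6 astrocyte markers 1 was higher and 2 lower. The part of these markers in the ITPR2 differences was not tested. ITPR2 was higher in Eurasian Tree Sparrows (0.73 ± 0.11).

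The ryanodine receptors amplify calcium signals inside the neuron. RYR3 was lower in Tree Swallows (-0.55 ± 0.09) and higher in House Wrens (0.74 ± 0.09) and Eastern Bluebirds (0.40 ± 0.11). RYR2 was lower in Prothonotary Warblers (-0.34 ± 0.10) and Eastern Bluebirds (-0.44 ± 0.15). ITPR3 varied most from bird to bird among the store release channels. In Eastern Bluebirds it ran at 20.6, 62.3 and 401 CPM (lowest, median, highest) and in Barn Swallows at 18.9, 28.9 and 169 CPM, and it passed in Troglodytidae, lower in House Wrens (-0.48 ± 0.18). The birds with the top values were Eastern Bluebird female 11 and Barn Swallow female 7. In these 2 birds, picked by their ITPR3 values, the summed level of 4 cerebellum markers was 1243 and 2075 CPM. The means over all birds of their species were 649 and 798 CPM. The other marker lists are not given for these birds, and the part of any list in these values was not tested.

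TRPV1 and TRPM8, known in sensory neurons as the heat and capsaicin receptor and the cold and menthol receptor, each had a species near the limit of detection. TRPV1 ran at 0, 0.837 and 2.4 CPM (lowest, median, highest) in Eastern Bluebirds, from 0 to 12 counts a library, and at 5.97, 10.9 and 24.2 CPM in American Robins. No Eastern Bluebird reached the lowest bird of any other species (log2 -3.98 ± 0.37, adjusted p = 4.29e-10). TRPV1 was lower in the obligate nester of Hirundinidae (-1.02 ± 0.14), Parulidae (-1.05 ± 0.17) and Passeridae (-0.42 ± 0.17, adjusted p = 0.0417) as well, with -0.14 ± 0.14 in Troglodytidae. TRPM8 ran at 0.282, 0.498 and 0.801 CPM in Carolina Wrens and 4.71, 10.2 and 42.5 CPM in House Wrens (log2 4.59 ± 0.28, adjusted p = 9.52e-14). Every Carolina Wren lay below every bird of the other 9 species. TRPM8 was also higher in Tree than in Barn Swallows (1.30 ± 0.17), without overlap, and lower in Eastern Bluebirds (-0.69 ± 0.25).

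TRPM7, a channel fused to a kinase that admits magnesium and zinc, differed in all 5 families, lower in Tree Swallows (-0.76 ± 0.13) and House Wrens (-0.21 ± 0.07) and higher in Eurasian Tree Sparrows (0.61 ± 0.09), Prothonotary Warblers (0.49 ± 0.08) and Eastern Bluebirds (0.38 ± 0.09). TRPM1 was scattered, at 12.0 to 125 CPM in Prothonotary Warblers and 0 to 61.6 CPM in American Robins, and passed in Turdidae (log2 -2.41 ± 0.67). The TRPC channels open after receptor signals that break down membrane lipids. TRPC1 was higher in the obligate nester of Hirundinidae (0.49) and Parulidae (0.53) and lower in that of Troglodytidae (-0.53) and Turdidae (-0.66). TRPC7 was higher in Eastern Bluebirds (0.82) and House Wrens (0.68) and lower in Prothonotary Warblers (-0.44). TRPC6 was lower in Tree Swallows (-1.05), and TRPC4 was higher in Tree Swallows (0.36) and Eurasian Tree Sparrows (0.46). Of the 42 members tested in every family, TRPC5 was the only one that differed in none (6.41% of all genes), with values of -0.27 to 0.26.

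Across families, no member differed in the same direction in all 5 (0.525% of all genes did). NALCN, SCN2B and TRPV1, all lower in the obligate nester, were called in 4 families in a single direction, 3 of the 42 members tested in every family (6.28% of all genes). The list depended on the settings. Without the 6 libraries that stand apart, it held CACNB1 and SCN2B, because NALCN in Turdidae (log2 -0.26, adjusted p = 0.0795) and TRPV1 in Passeridae (-0.41, adjusted p = 0.0573) no longer passed, while CACNB1 in Passeridae (1.04, adjusted p = 0.000555) did. With library size alone and with no filter NALCN left the list (adjusted p of 0.0666 and 0.0604 in Turdidae). Without mitochondrially encoded genes TRPV1 left it (-0.40 in Passeridae, adjusted p = 0.0584), and with marker scores as covariates it held CACNB1, ITPR1 and NALCN. NALCN was called in all 5 families by DESeq2 (-0.22 in Troglodytidae, adjusted p = 0.0408), after mitochondrially encoded genes were left out (-0.23, adjusted p = 0.0353) and with marker scores (-0.39, adjusted p = 0.00944). CACNA1A, CACNA2D2, HCN2, HCN3, SCN8A and TRPM7 differed in every family with mixed signs, 6 of 42 members (9.61% of all genes). This list depended on the settings too. Without mitochondrially encoded genes SCN8A in Passeridae did not pass (-0.26, adjusted p = 0.0533 in edgeR). With library size alone HCN2 in Passeridae (0.16, 0.188) and CACNA1A (0.22, 0.0954) and CACNA2D2 (0.10, 0.265) in Parulidae did not pass. Irrespective of direction, 15 of 42 members were called in at least 4 families (32.0% of all genes). In all, 24 of 42 members were called higher in some families and lower in others (58.8% of all genes).

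**Figure D3:**
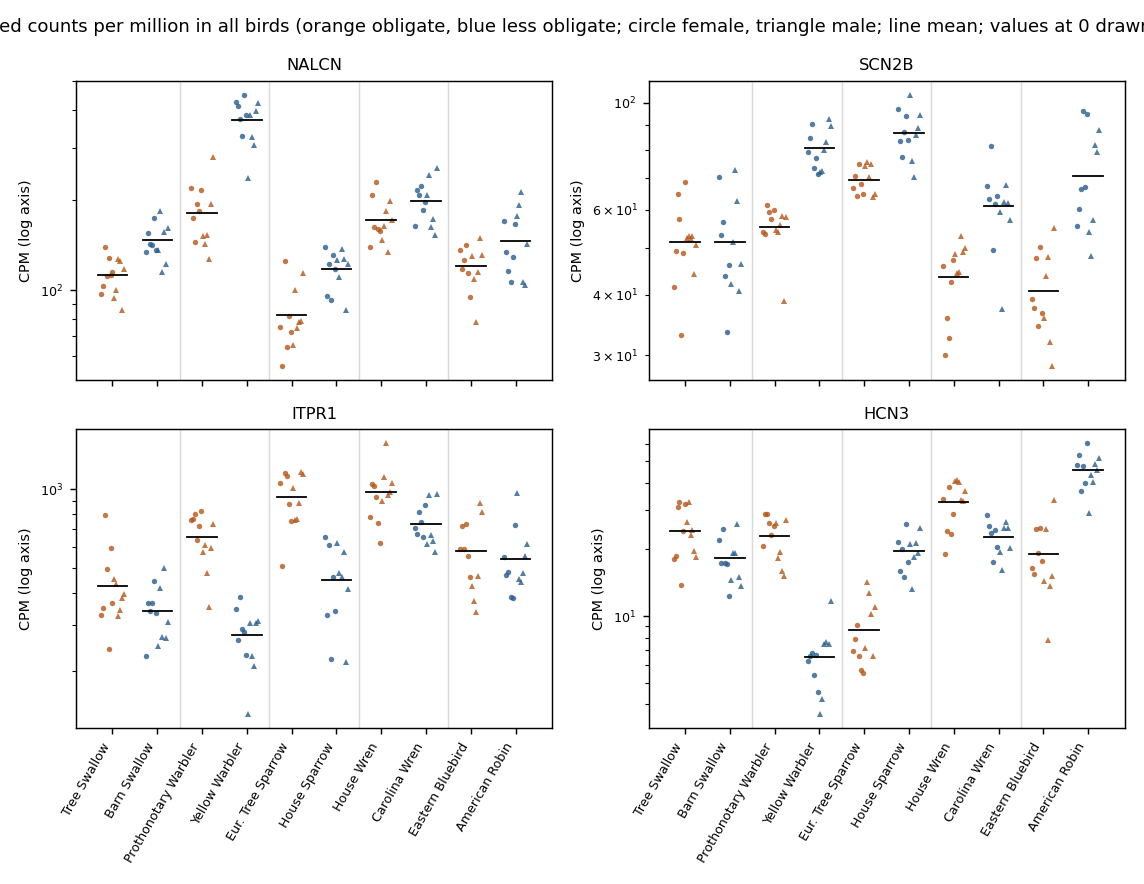
CPM of NALCN, SCN2B, ITPR1 and HCN3 in each of 121 birds on log axes (orange, obligate species; blue, less obligate; circles, females; triangles, males; black line, species mean; grey lines divide families). NALCN means are lower in the obligate species of each pair and ITPR1 means are higher, while HCN3 changes direction between families.

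With the species as the unit, 5 obligate against 5 less obligate species means within families, no member passed the adjusted threshold in limma (0% of all genes did). At an unadjusted p under 0.05 there were 3 members (4.47% of all genes). They were ITPR1 with a difference of 0.62 ± 0.23 (SE), NALCN with -0.49 ± 0.19 and TRPV1 with -1.24 ± 0.49. Each had an adjusted p of 0.952 in limma. Without Turdidae the difference of TRPV1 was -0.63. By species means ITPR1 was higher and NALCN lower in the obligate species of 5 of 5 pairs, with the reservation on ITPR1 in Turdidae given above. In the family fits SCN2B and TRPV1 were also negative and CACNG5 positive in all 5 families, but not every sign was firm. SCN2B in Hirundinidae (-0.01, adjusted p = 0.949 in edgeR) turned positive under DESeq2 and in females alone (0.07). TRPV1 in Troglodytidae (-0.14, adjusted p = 0.396 in edgeR) turned positive with the replicate block (0.04). The lowest value of CACNG5 was 0.05. How many of all genes keep a single sign in this way was not counted. The next members by p were SCN2B (-0.42 ± 0.18), CACNA1D (0.55 ± 0.30) and CACNG5 (0.36 ± 0.20). The difference did not depend on the type of partner, open cup or facultative, for any member at the adjusted threshold (0% of all genes in limma), and CACNB3, HCN2, SCN4B and SCN8A had an unadjusted p under 0.05 (4.09% of all genes).

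Of the 44 members, 1 differed between the sexes over all birds at the adjusted threshold in edgeR, where 5.21% of all genes were called, and it was higher in males, as were 4.15% of all genes. Of the measured partners, other cation channels, pumps and buffers described below, HOMER1 (log2 0.39), ERBIN (log2 0.58) and SLC24A2 (log2 0.38) were higher in males. No neuronal marker differed by sex, in 8 pan-neuronal, 8 excitatory and 16 inhibitory and striatal genes. Of other markers, 2 of 5 blood markers (HBAD and EPB42) were lower in males, VCAN of the oligodendrocyte precursors and SLC1A3 of the astrocytes were higher, and 1 of 10 endothelial and mural markers was higher and 1 lower.

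At an unadjusted p under 0.05, 3 members differed by sex (10.6% of all genes), among them ITPR2 (-0.09 ± 0.04, SE, as log2 of males over females) and TRPC4 (0.14 ± 0.06). The sex difference depended on nesting strategy for no member at the adjusted threshold in edgeR (0.0563% of all genes), and for CACNA1A, CACNG7 and ITPR2 at an unadjusted p under 0.05 (6.39%). It depended on species for no member at the adjusted threshold (1.06%), and for CACNA1A, CACNG3, ITPR3, SCN8A and TRPM8 at an unadjusted p under 0.05 (8.23%). The test for sex rested on birds from all species, and 2 of them had a CHD1W level that went against their label, both Carolina Wrens. Without the 6 libraries that stand apart, 1 member differed by sex (5.60% of all genes).

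Genes that work with these channels also differed within pairs. In each family 24.2% to 30.7% of all genes were higher and 24.8% to 28.5% lower in the obligate nester. Of 45 measured partners and regulators, between 10 and 12 were higher and between 9 and 13 lower. UNC79, noted above, and the calcium sensor STIM2 (log2 -4.97 in Hirundinidae, the only family in which it was tested) had the lowest values of the list. ANK2, a scaffold of sodium and calcium channels, was higher in the obligate nester of Passeridae (2.34), Troglodytidae (2.22) and Turdidae (1.15). It was lower in that of Hirundinidae (-0.41), and its value in Parulidae (-0.18) did not pass. ANK3, which gathers sodium channels at the axon initial segment, had the same sign as SCN8A in all families but Hirundinidae, at 0.83 in Parulidae, -1.51 in Passeridae, -0.94 in Troglodytidae and 1.34 in Turdidae, and -0.81 in Hirundinidae. The partners NFASC, NRCAM and SPTBN4 shared the sign of SCN8A in fewer families. From Hirundinidae to Turdidae in the order of the pairs above, NFASC was -1.42, 1.93, 1.48, -0.61 and -0.80. In the order Hirundinidae, Parulidae, Passeridae, Troglodytidae and Turdidae, NRCAM was -1.71, -0.47, 0.61, -1.73 and 1.11, and SPTBN4 was -0.77, -0.10, -0.43, 0.05 and 0.43. Of 20 other cation channels, 2 were higher and 9 lower in the Eurasian Tree Sparrow (24.2% and 24.8% of all genes), and the mechanosensitive channel PIEZO1 was 1.5 in Hirundinidae and -3.82 in Turdidae. Of 30 calcium pumps, exchangers and buffers, 10 were higher and 2 lower in Passeridae (24.2% and 24.8% of all genes), 12 and 4 in Troglodytidae (30.7% and 26.2%) and 11 and 3 in Turdidae (28.5% and 27.7%), while Hirundinidae had 8 and 10 and Parulidae 9 and 8. The sodium-calcium exchanger SLC8A3 was higher in 4 families, with 1.57 in Hirundinidae and 1.43 in Turdidae.

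Birds of the same species and sex also differed, and many of the channel genes moved with markers of neuron types. A score for each bird was taken as the mean log2 CPM of a marker list after removing the mean of its species and sex, and each gene was fitted against it in edgeR over all 121 birds. With the score of 16 inhibitory and striatal markers, 21 of 44 members had a slope (21.4% of all genes), 15 positive (9.72%) and 6 negative (11.7%). CACNA1E rose by a log2 value of 0.29 ± 0.02 (SE) for each SD of the score (adjusted p = 6.3e-26), and CACNG3 by 0.32 ± 0.03, ITPR1 by 0.23 ± 0.03, SCN3B by 0.22 ± 0.02 and CACNA2D3 by 0.21 ± 0.02. In the other direction, ITPR3 had a slope of -0.32 ± 0.05 and SCN4B of -0.24 ± 0.05. The correlation of CACNA1E with the score was 0.84 over the 121 birds, given as a description, since the birds share species and dissection.

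With the score of 8 excitatory markers, 15 members had a slope (19.1% of all genes), 15 positive (10.7%) and none negative (8.46%). Among those called were CACNG3 (0.13 ± 0.04), TRPC5 (0.12 ± 0.04) and CACNG4 (0.11 ± 0.02). With the score of 6 oligodendrocyte markers, 23 members had a slope (44.7% of all genes), 6 positive (19.6%) and 17 negative (25.1%). SCN4B (0.27 ± 0.05) and CACNG7 (0.26 ± 0.05) were among the positive ones, and TRPM1 (-0.23 ± 0.09), TRPC6 (-0.23 ± 0.04) and RYR2 (-0.18 ± 0.03) the most negative. Without the 6 libraries that stand apart, 20 members had a slope on the inhibitory and striatal score (21.4% of all genes) and 24 on the oligodendrocyte score (45.8%). On the excitatory score 20 members then had a slope (21.2%), 19 positive (11.1%) and 1 negative (10.1%). These slopes were added after the data were seen, and the markers and the channel genes come from the same libraries.

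**Figure D4:**
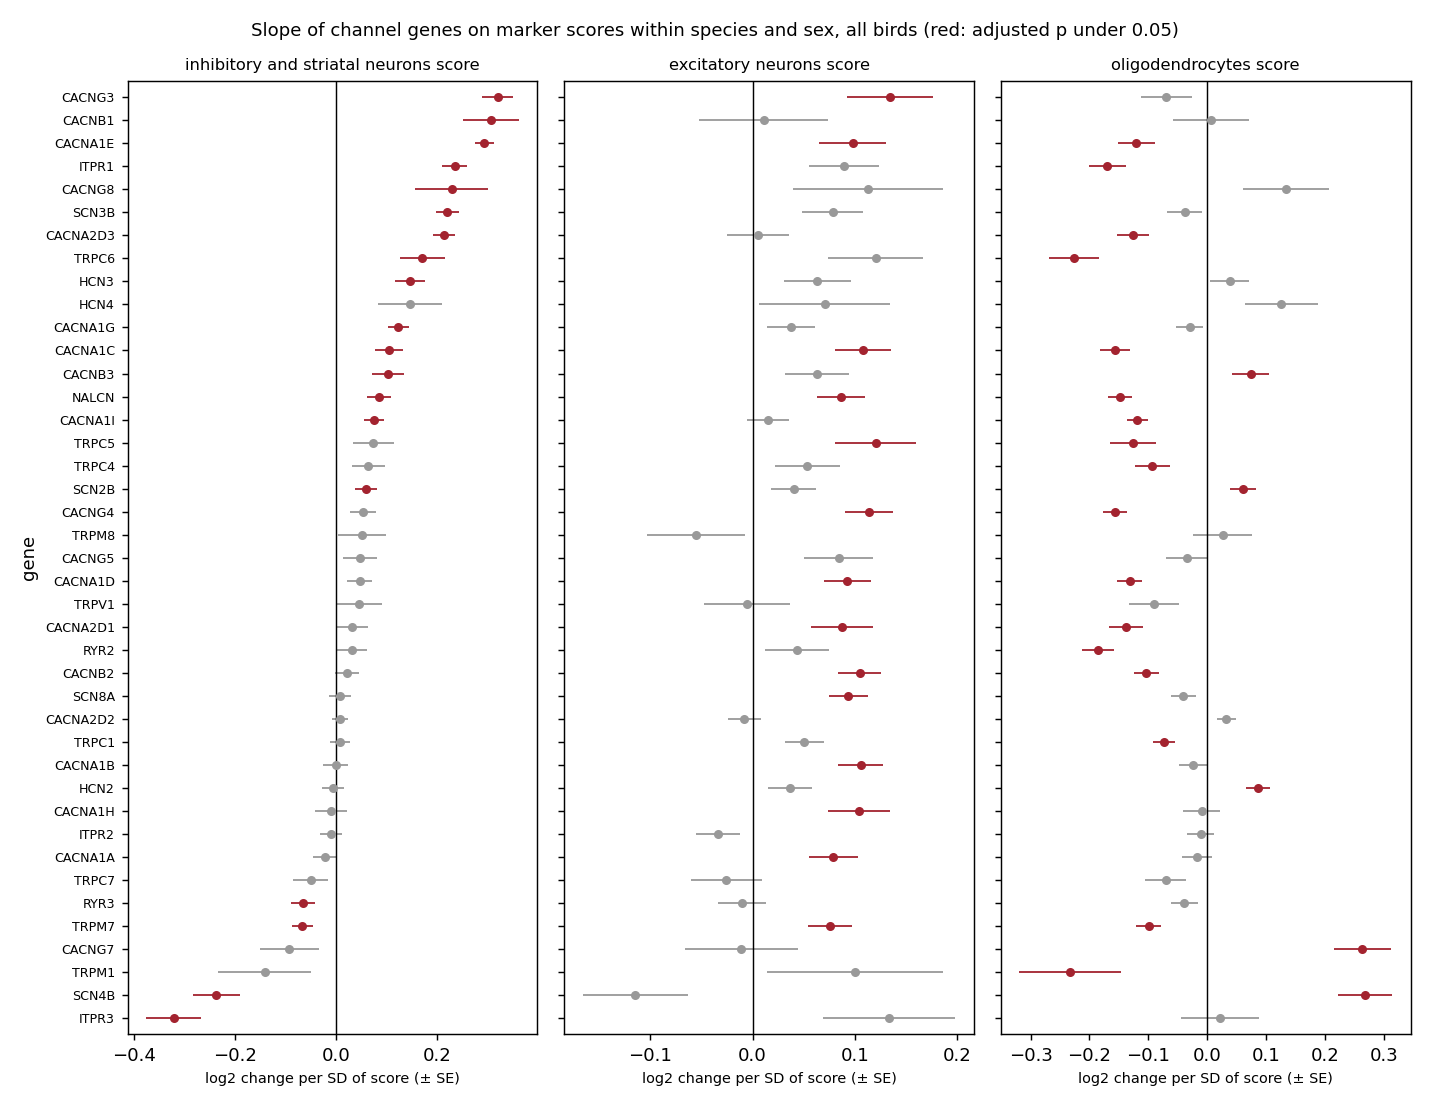
Slope of each of 41 channel genes on 3 marker scores, within species and sex, as log2 change for each SD of the score (x axis, ± SE; red, adjusted p under 0.05; genes in the order of their slope on the inhibitory and striatal score). CACNG3, CACNB1 and CACNA1E lie at the positive end of the first panel and ITPR3 and SCN4B at the negative end.

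The same 3 marker lists were also entered as covariates in the family fits, here as the mean log2 CPM of each list in a bird without removing the mean of its species, so that a score can hold part of a species difference. This setting was added after the data were seen. The number of members that differed was then 31 in Hirundinidae (56.3% of all genes), 30 in Parulidae (61.2%) and 21 in Passeridae (47.6%). It was 21 in Troglodytidae (47.8%) and 28 in Turdidae (56.9%). NALCN was lower in the obligate nester of all 5 families. In Troglodytidae the values of CACNA1A (0.00, adjusted p = 0.993), CACNA1H (0.05, 0.849), CACNB1 (-0.32, 0.336), HCN4 (-0.52, 0.0553), ITPR3 (-0.58, 0.142), SCN2B (-0.21, 0.409) and TRPC7 (0.42, 0.0501) no longer passed in edgeR. The same held for HCN3 (0.30, 0.0507) in Hirundinidae, for CACNA1C (-0.32, 0.0802), CACNA1I (-0.15, 0.171) and TRPV1 (-0.33, 0.182) in Passeridae, and for CACNA2D2 (-0.20, 0.111), HCN4 (-0.91, 0.0607) and TRPM8 (-0.58, 0.0557) in Turdidae.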

How the data were processed

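RNA-seq of the ventromedial telencephalon was measured in 121 birds. The authors deposited raw read counts per gene in a single table of 10672 genes, from TruSeq Stranded mRNA libraries per the labels' protocols. The submitters' processing notes name Trimmomatic 0.36, fastp 0.20.1, Bowtie2 2.4.4, SAMtools 1.10, featureCounts and Subread 2.02z. Their settings, the strand option and the build were not given in the sources used here, so overlapping genes and near-identical copies may share reads.

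Counts were tested with edgeR 4.0.16 in R 4.3.3 (quasi-likelihood, TMM scaling, filterByExpr over the groups of species and sex) within each family with sex as a covariate, and over all birds for sex, species and their interactions. Species means of log2 CPM (prior count 2) were tested with limma 3.58.1 with family as a block. Two-sided p-values were corrected by Benjamini-Hochberg over every gene tested, with a threshold of 0.05. SE were taken as the absolute log2 difference over the square root of F. Figures were drawn with matplotlib 3.10.9 under Python 3.11.15. The scripts were tested on simulated counts.

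Values in full were given for the members with the 4 largest differences in each direction and family at a mean of at least 5 CPM, those called in a single direction in 4 or more families, those called for sex, the leading members over species means and 40 main subunits. Results for a few of the members are not reported here. The members and gene lists were chosen with earlier results of these data known. Alternatives were DESeq2 1.42.0, library size alone, no filter, a replicate block, each sex alone, a 2-fold threshold, another prior count, leaving out a family, the 6 libraries that stand apart or the mitochondrially encoded genes, and, added after the data were seen, marker scores as covariates. The labels number birds within a species, and p-values measure the spread between the sampled birds. Sequences were not used here.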

Additional observations from a re-analysis of the deposited data

Results flagged for a closer look

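Of 82 groups of 5 species means examined, 5 held a value far from the others, and chance alone gives about 1 in 20 such groups. Among the 5 obligate species, the House Wren mean stood apart for CACNA1I (log2 CPM 7.02, others 5.96 to 6.18) and CACNG4 (4.96, others 5.73 to 5.99), and the Eastern Bluebird mean for TRPV1 (-0.0693, others 3.83 to 4.31). Among the 5 less obligate species, the Yellow Warbler mean stood apart for SCN4B (4.07, others 2.93 to 3.24) and the Carolina Wren mean for TRPM8 (-0.224, others 3.01 to 3.29).

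For 37 of the members described in full, the difference between the paired species depended on family by edgeR's test of the interaction. The same held for 89.5% of all genes. The span between the highest and the lowest log2 difference over the families follows in parentheses. Among the calcium channel pores these were CACNA1A (1.86), CACNA1B (1.54), CACNA1C (2.78), CACNA1D (1.82), CACNA1E (1.22), CACNA1G (0.93), CACNA1H (1.96) and CACNA1I (1.59). Among the auxiliary subunits they were CACNA2D1 (3.46), CACNA2D2 (1.52), CACNA2D3 (1.14), CACNB1 (2.42), CACNB2 (0.77), CACNB3 (2.32), CACNG3 (1.19), CACNG4 (0.82), CACNG5 (0.99) and CACNG8 (1.95). Among the sodium channel genes and NALCN they were NALCN (0.83), SCN2B (0.78), SCN3B (1.43), SCN4B (2.11) and SCN8A (2.97). Among the HCN and store release channels they were HCN2 (1.47), HCN3 (3.08), HCN4 (1.85), ITPR1 (1.16), ITPR2 (2.11), ITPR3 (1.15) and RYR3 (1.29). Among the TRP channels they were TRPC1 (1.19), TRPC4 (0.66), TRPC6 (1.57), TRPC7 (1.26), TRPM1 (3.01), TRPM8 (5.28) and TRPV1 (3.84).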

How the results depend on the processing

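Of 114 called differences of a member described in full in a family, 59 held under every alternative fitted. DESeq2 kept 114, library size alone 104, no filter 112, leaving out the 6 libraries that stand apart 108, leaving out mitochondrially encoded genes 111, females alone 93, males alone 80, marker scores as covariates 100, and the replicate block 83. With at least 2-fold required, 10, 8, 4, 5 and 10 members remained in Hirundinidae, Parulidae, Passeridae, Troglodytidae and Turdidae. The shares of all genes were 14.7%, 12.0%, 12.4%, 11.7% and 17.9%. Males alone gave 14 members in Turdidae (34.9% of all genes). Under DESeq2, without mitochondrially encoded genes and with marker scores, 1 member, NALCN, was called in a single direction in all 5 families. Library size alone shifted the median of all genes by -0.17 in Parulidae and -0.18 in Passeridae, where 33.1% and 30.9% of called genes were then higher in the obligate nester against 50.7% and 49.4%, and the members split 8 higher to 14 lower and 8 to 12. Without the 6 libraries, CACNA1B in Hirundinidae (-0.22, adjusted p = 0.118), CACNA1H in Troglodytidae (-0.29, 0.0718) and CACNA2D2 (-0.19, 0.0902), NALCN (-0.26, 0.0795) and SCN3B (0.34, 0.0534) in Turdidae were lost by edgeR's test, as was TRPV1 in Passeridae (-0.41, 0.0573). With marker scores, CACNA1A (0.00233) and CACNA1H (0.0533) in Troglodytidae changed sign and neither passed; the cause was not tested.

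Correlations were taken between the deviations of birds with the same number. Over 36 pairs of the same number and sex in both species of a family, r ran from -0.55 to 0.40. The median was -0.04, and 10 were above 0.1. Over 40 pairs in both sexes of a species the median was 0.02, and 15 were above 0.1. The labels do not say whether birds with the same number belong together. These correlations cannot decide it, since birds with different numbers were not compared in this way. The main fits treated the birds as unpaired. With the replicate block, 24, 20, 18 and 23 members differed in the first 4 families (44.7%, 43.4%, 37.9% and 50.5% of all genes). In Turdidae, which had 2 blocks, 11 members differed (19.7% of all genes). CACNA1B (-0.19) in Turdidae then changed sign, as did ITPR1 in Turdidae (0.10 to -0.61) and TRPV1 in Troglodytidae (-0.14 to 0.04), which passed in neither fit. SCN2B was then the only member called in 4 families in a single direction. With this block 0 members differed by sex by edgeR (4.30% of all genes), with 3 at an unadjusted p under 0.05. Over species means no member passed under any alternative run, but the 3 members with an unadjusted p under 0.05 in limma depended on the settings. ITPR1 lost it without Parulidae (0.46) or Passeridae (0.51), and NALCN without Parulidae (-0.35), Passeridae (-0.47) or Hirundinidae (-0.51) and in females alone (-0.47). TRPV1 lost it without Hirundinidae (-1.30) or Parulidae (-1.29), in females alone (-1.18) and with a prior count of 0.5 (-1.37). SCN2B in Hirundinidae, not called, ran from -0.14 to 0.07. Genes at few counts, such as TRPV1 in Eastern Bluebirds and CACNG7 in swallows, are limited by depth.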
